A study of Homo sapiens with 16 samples.

Results

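Respiratory complex I was described here through 39 nuclear genes whose symbols begin with NDUF, of 22395 genes that had a probe set of their own on the arrays. They are 31 subunit genes (NDUFA, NDUFAB, NDUFB, NDUFC, NDUFS and NDUFV) and 8 assembly factors (NDUFAF1 to NDUFAF8). A gene was taken where a probe set carried its symbol alone, and the brightest probe set was used where a gene had several, which concerned NDUFA9. Pseudogenes, antisense and divergent transcripts were left out, which removed 5 names. NDUFS8, NDUFA11, NDUFA13, NDUFC2 and NDUFB8 were not analysed here because they share their probe sets with another symbol. All 39 genes passed the filter on dim genes, which kept the brightest 70% of genes, 15676 in all. The dimmest was NDUFA12, brighter than 28.1% of the genes tested, and the brightest was NDUFAB1, brighter than 95.1% of them.

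Complex I is the largest enzyme of the respiratory chain. It takes electrons from NADH, passes them along a row of iron-sulfur clusters in its matrix arm to ubiquinone, and pumps protons through its membrane arm. A few core subunits carry out the chemistry, the many accessory subunits surround them, and assembly factors build the enzyme without staying in it. Proliferating colorectal cancer cells use the chain to regenerate NAD+ and, with glutamine as a carbon source, to make aspartate.

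RNA came from DLD1 and HCT116, established human colorectal carcinoma lines, each in derivatives that had lost either PIK3CA allele. Mut cells keep the mutant allele, their wild-type one being knocked out, and WT cells keep the wild-type allele, their mutant one being knocked out. Each was kept for 24 h in DMEM with 10% dialyzed fetal bovine serum, with or without glutamine (Gln), so that all 8 groups share medium and serum and differ in line, allele and glutamine. The labels name 1 derivative per line and allele and give no clone number, so an allele difference within a line is also a difference between 2 derivatives.

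Total RNA was labelled by a whole-transcript protocol, and each group had 2 arrays, 16 in all. The labels call the replicates biological but do not say how the cultures were separated, so p-values measure the spread between these arrays. Array medians lay between 3.57 and 3.70 on the linear intensity scale, and the arrays of a group correlated at 0.991 to 0.993 over all genes. All 9 colon epithelial markers were tested, with EPCAM between 1387 and 2377, while KRT8 stayed between 12.3 and 42.0 and VIL1 between 2.72 and 9.29. The summed intensity of the 4 leukocyte markers with a probe set was 30.9 to 45.2 in the DLD1 groups, 82.2 and 115 in HCT116 Mut and WT cells with glutamine, and 181 and 217 without it. It came mostly from CD68, a lysosomal protein, while PTPRC, the defining leukocyte marker, lay between 1.67 and 2.37. Summed fibroblast markers reached at most 20.6 and endothelial markers at most 9.51. In bulk RNA, fewer cells with a transcript and less of it per cell cannot be told apart.

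Both directions of change occurred among complex I genes after glutamine withdrawal. NDUFS4, an accessory subunit of the matrix arm, rose in all 4 derivatives, while NDUFS5 and NDUFB10 of the membrane arm and NDUFA9 of the ubiquinone-binding part fell in all 4. The promoters of 1 gene that rose and 2 that fell are shown first, as the 250 bases before the RefSeq transcription start (GRCh38.p14, plus strand, 5′ to 3′). They lie at chr5:53560389-53560638 for NDUFS4, chr16:1959288-1959537 for NDUFB10 and chr12:4648864-4649113 for NDUFA9, and capitals mark the one match to an NRF1 motif.
NDUFS4: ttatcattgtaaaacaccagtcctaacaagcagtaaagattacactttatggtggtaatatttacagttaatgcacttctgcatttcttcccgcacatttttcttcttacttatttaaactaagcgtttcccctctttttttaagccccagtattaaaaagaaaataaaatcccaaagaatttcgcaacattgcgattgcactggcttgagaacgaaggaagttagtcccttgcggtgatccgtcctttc
NDUFB10: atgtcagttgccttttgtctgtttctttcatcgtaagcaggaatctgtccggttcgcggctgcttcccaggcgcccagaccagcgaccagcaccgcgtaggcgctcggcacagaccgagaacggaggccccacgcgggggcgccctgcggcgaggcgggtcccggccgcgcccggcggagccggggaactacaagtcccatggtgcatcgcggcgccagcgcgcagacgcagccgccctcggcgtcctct
NDUFA9: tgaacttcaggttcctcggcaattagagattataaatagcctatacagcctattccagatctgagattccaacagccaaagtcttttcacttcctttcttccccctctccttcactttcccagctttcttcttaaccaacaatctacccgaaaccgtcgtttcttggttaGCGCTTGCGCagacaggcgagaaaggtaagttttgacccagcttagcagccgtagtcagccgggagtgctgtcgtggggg

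The promoter table held 35 of the 39 genes, in windows of 300 bases that run from 250 before to 50 after the start. GC content of these windows was 40.3% for NDUFS4, the lowest of the 35, against a median of 62.7% and a highest value of 74.7%. Among 15843 protein-coding genes the median was 62.3%, and 929 were at or below NDUFS4. NDUFB10 had 70.7% and NDUFA9 had 50.7%.

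Motifs were searched on both strands by exact letters, where N is any base, and overlaps between motifs were not removed. The NRF1 motif was in 5 of 28 subunit promoters (17.9%), in 1 of 7 assembly factor promoters and in 9.67% of all. The YY1 motif AAGATGGCG was in 5 of 28 (17.9%), in 1 of 7 and in 3.21% of all, and NDUFS4 and NDUFA9 each held it just after the start. The ETS motif CCGGAAG was in 4 of 28 (14.3%), in 2 of 7 and in 16.5% of all. The CRE letters TGACGTCA were in 2 of 28 and 3.0% of all, the E-box CACGTG in 2 of 28 and 10.9%, and TGATGNAA, as in ATF4 composite sites, in 2 of 28 and 3.6%, and these 3 were in 0, 1 and 0 of the 7 assembly factor promoters. NDUFB10 held none of the 6. A match describes these letters in this window, and binding was not measured.

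The first comparison asked how complex I transcripts changed in 24 h without glutamine, as the mean of the 4 derivatives. Of the 39 genes, 26 fell and 2 rose at an adjusted p under 0.05 (limma, one mean per group, Benjamini-Hochberg over all genes tested). That is 66.7% lower, where 23.5% of all genes tested were lower, and 5.13% higher, where 24.3% were higher. The median change of the 39 genes was -0.27 on the log2 scale and that of all genes tested was -0.0042. By class, 20 of 31 subunits fell and 2 rose, with a median of -0.23, and 6 of 8 assembly factors fell and 0 rose, with a median of -0.33. Each of the 8 assembly factors had a change below 0, and 24 of the 31 subunits did. Of the 28 genes that changed, 24 stayed past the threshold in each of the 16 fits without 1 array, and NDUFA5, NDUFS7, NDUFAF1 and NDUFAF2 did not.

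**Figure D1:**
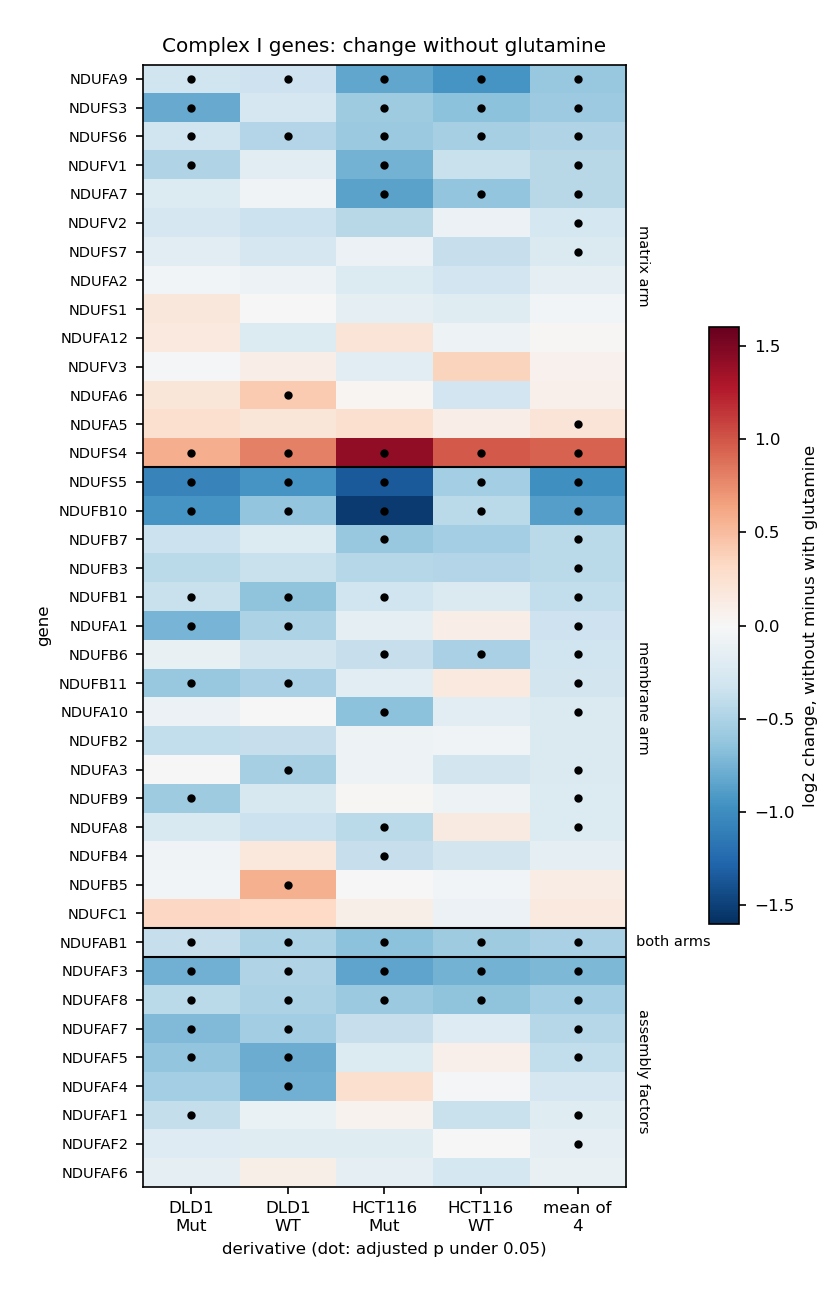
Colour gives the log2 change without against with glutamine for the 39 complex I genes (vertical, grouped by role and sorted by mean change) in the 4 derivatives and their mean (horizontal), and a dot marks an adjusted p under 0.05. Blue prevails in each role, with 26 dots on lower and 2 on higher genes in the mean, and NDUFS4 is the one gene with a dot on a higher value in each column.

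NDUFS4 sits where the NADH-oxidising and ubiquinone-binding modules of the matrix arm meet, and its inherited loss is a known cause of Leigh syndrome. Its intensities were 66.5 and 63.2 in DLD1 Mut cells with glutamine and 95 and 99.5 without it, and 54.8 and 56.7 against 101 and 93.8 in DLD1 WT cells. In HCT116 Mut cells they were 122 and 123 with glutamine and 358 and 298 without it, and in HCT116 WT cells 97.1 and 91.5 against 192 and 180. Every array without glutamine was above both arrays of the same derivative with it. The mean log2 change was 0.95 ± 0.05 (SE; adjusted p = 1.38e-07, limma), a 1.93-fold rise. By derivative it was 0.58 ± 0.10 in DLD1 Mut (adjusted p = 0.00117), 0.81 ± 0.10 in DLD1 WT (adjusted p = 0.000228), 1.42 ± 0.10 in HCT116 Mut (adjusted p = 5.17e-06) and 0.98 ± 0.10 in HCT116 WT (adjusted p = 9.4e-05). Each of these calls held in every fit without 1 array.

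Core subunits of the matrix arm moved the other way. Of the 5 analysed, 4 fell and 0 rose, with a median of -0.29, where 23.5% of all genes were lower and 24.3% higher. NDUFS3, of the ubiquinone-binding module, gave 121 and 128 in DLD1 Mut cells with glutamine and 68.0 and 74.7 without it, and 93.7 and 97.4 against 82.1 and 76.7 in DLD1 WT cells. HCT116 arrays gave 95.3 and 85.2 against 57.5 and 64.3 in Mut cells and 112 and 101 against 67.5 and 66.7 in WT cells. Its groups did not overlap within any derivative, and its mean change was -0.58 ± 0.05 (adjusted p = 4.51e-06, limma).

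NDUFV1, which binds NADH and the flavin, changed by -0.44 ± 0.08 (adjusted p = 0.000854). NDUFV2, which carries an iron-sulfur cluster beside it, changed by -0.29 ± 0.09 (adjusted p = 0.0215), with an adjusted p of 0.0582 after quantile normalization. NDUFS7, which holds the cluster nearest to ubiquinone, changed by -0.23 ± 0.08 (adjusted p = 0.0369), a call lost in 9 of the 16 fits without 1 array, where the adjusted p reached 0.0850. NDUFS1, the core subunit with most of the clusters, was between 286 and 420 on all arrays and its change of -0.04 ± 0.05 did not pass (adjusted p = 0.535).

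Accessory subunits of the matrix arm went in several directions. NDUFA9, a short-chain dehydrogenase relative that holds a nucleotide near the ubiquinone site, gave 624 and 680 in DLD1 Mut cells with glutamine and 533 and 513 without it, and 565 and 604 against 466 and 463 in DLD1 WT cells. In HCT116 it gave 491 and 473 against 263 and 276 in Mut cells, and 478 and 434 against 236 and 236 in WT cells. All arrays without glutamine were below those of the same derivative with it, by more in HCT116. The mean change was -0.61 ± 0.04 (adjusted p = 9.67e-07, limma). A second NDUFA9 probe set lay between 3.74 and 8.34 and changed by 0.01, and with the mean of both probe sets the change was -0.30 (adjusted p = 0.0110).

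NDUFS6, a zinc-binding subunit needed late in assembly, changed by -0.48 ± 0.06 (adjusted p = 3.32e-05) and NDUFA7 by -0.44 ± 0.05 (adjusted p = 2.35e-05). NDUFA5 rose by 0.20 ± 0.07 (adjusted p = 0.0356), a call lost in 9 of the 16 fits without 1 array, with an adjusted p of up to 0.0819. The LYR-motif subunit NDUFA6 at 0.09, NDUFV3 at 0.07, NDUFA12 at 0.02 and NDUFA2 at -0.16 did not pass, with adjusted p-values of 0.0556 to 0.767. Over the 14 matrix-arm genes analysed, 7 fell, where 23.5% of all genes were lower, and 2 rose, where 24.3% were higher, with a median of -0.19.

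In the membrane arm, 12 of 16 genes fell and 0 rose, with a median of -0.26, beside the same 23.5% lower and 24.3% higher among all genes. NDUFS5, a small subunit on the side of the intermembrane space, gave 79.8 and 71.9 in DLD1 Mut cells with glutamine and 41.1 and 31.7 without it, and 76.4 and 63.7 against 34.9 and 37.8 in DLD1 WT cells. The HCT116 values were 152 and 137 against 55.0 and 58.5 in Mut cells, and 123 and 136 against 90.3 and 87.3 in WT cells. The groups did not overlap within any derivative. The mean change was -0.98 ± 0.07 (adjusted p = 8.78e-07, limma), a 1.97-fold fall. Within HCT116 WT cells the change of -0.54 ± 0.14 (adjusted p = 0.0182) was lost without glutamine-fed replicate 2 (adjusted p = 0.109) or either glutamine-free replicate (adjusted p = 0.0632 and 0.0857).

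NDUFB10, another subunit facing the intermembrane space, in the distal part of the arm, gave 47.9 and 51 in DLD1 Mut cells with glutamine and 26.3 and 25.2 without it, and 46.2 and 48.9 against 27.5 and 34.4 in DLD1 WT cells. In HCT116 it gave 83.9 and 83.5 against 27.1 and 31.1 in Mut cells, and 81.0 and 86.5 against 63.7 and 60.2 in WT cells. Without glutamine, HCT116 Mut cells were thus at the level of DLD1 cells, and HCT116 WT cells above it. The mean change was -0.88 ± 0.06 (adjusted p = 5.55e-07, limma). In HCT116 WT cells alone it was -0.44 ± 0.12 (adjusted p = 0.0235), a call lost without any one of that derivative's 4 arrays (adjusted p = 0.0613 to 0.122).

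Smaller falls were spread over the membrane arm. NDUFB3 and NDUFB7 changed by -0.43 each, NDUFB1 by -0.39, NDUFA1 by -0.33, NDUFB6 by -0.32 and NDUFB11 by -0.29. NDUFA10 and NDUFA3 changed by -0.23, and NDUFA8 and NDUFB9 by -0.22, and all 10 passed with adjusted p-values of 0.000149 to 0.0162. NDUFB2 at -0.23, NDUFB4 at -0.14, NDUFB5 at 0.12 and NDUFC1 at 0.16 did not. NDUFAB1, the mitochondrial acyl carrier protein, is found in both arms and also serves fatty acid and lipoic acid synthesis. It changed by -0.52 ± 0.05 (adjusted p = 1.32e-05).

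**Figure D2:**
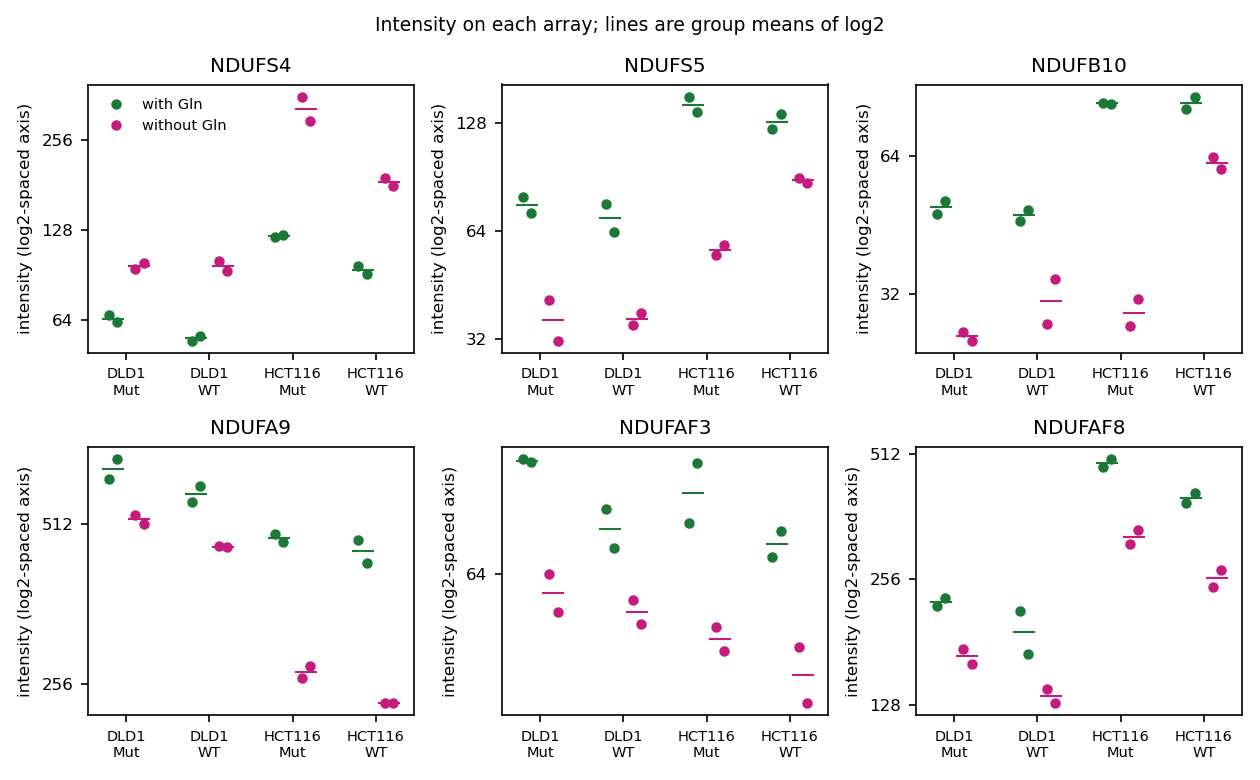
Points are the intensities on each of the 16 arrays (vertical, log2-spaced axis) for 6 genes, by derivative (horizontal) and glutamine (colour), and lines are group means of log2. NDUFS4 is higher without glutamine in each derivative, up to 358, and the other 5 genes are lower, with NDUFB10 at 27.1 and 31.1 in HCT116 Mut cells without glutamine against 83.9 and 83.5 with it.

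Among the assembly factors, NDUFAF3 and NDUFAF4 act together on the ubiquinone-binding module. NDUFAF3 gave 102 and 100 in DLD1 Mut cells with glutamine and 63.9 and 54.8 without it, and 83.0 and 70.9 against 57.5 and 52.3 in DLD1 WT cells. On the HCT116 arrays it gave 78.6 and 100 against 51.7 and 46.9 in Mut cells and 68.4 and 76.0 against 47.7 and 38.0 in WT cells. The groups were apart in every derivative, and the mean change was -0.72 ± 0.08 (adjusted p = 1.88e-05, limma). The call in HCT116 WT cells, -0.76 ± 0.15 (adjusted p = 0.00565), was lost without glutamine-free replicate 2 (adjusted p = 0.0517). The call in DLD1 WT cells, -0.48 ± 0.15 (adjusted p = 0.0391), was lost in 6 of the 16 fits without 1 array, most without glutamine-fed replicate 1 (adjusted p = 0.210).

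NDUFAF4, its partner, had arrays further apart. It gave 22.5 and 30.9 in DLD1 Mut cells with glutamine and 14.9 and 21.9 without it, and 27.1 and 33.7 against 14.8 and 21.3 in DLD1 WT cells. In HCT116 it gave 37.9 and 30.5 against 39.2 and 42.3 in Mut cells and 34.3 and 23.5 against 28.6 and 27.0 in WT cells. Its mean change of -0.27 ± 0.13 did not pass (adjusted p = 0.113), and the call in DLD1 WT cells, -0.77 ± 0.26 (adjusted p = 0.05), was lost in 11 of the 16 fits without 1 array, with -0.50 (adjusted p = 0.293) without glutamine-free replicate 1.

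NDUFAF8 and NDUFAF5 also work as a pair, in which NDUFAF5 hydroxylates an arginine of NDUFS7. NDUFAF8 gave 220 and 231 in DLD1 Mut cells with glutamine and 175 and 160 without it, and 215 and 170 against 140 and 129 in DLD1 WT cells. In the HCT116 line it gave 475 and 498 against 310 and 336 in Mut cells and 391 and 413 against 246 and 269 in WT cells. It was lower without glutamine on each array of every derivative, by -0.54 ± 0.06 in the mean (adjusted p = 2.16e-05, limma).

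NDUFAF5 gave 15.8 and 13.9 in DLD1 Mut cells with glutamine and 9.14 and 9.94 without it, and 13.5 and 11.5 against 7.63 and 6.73 in DLD1 WT cells. In HCT116 it gave 11.2 and 13.9 against 9.86 and 11.6 in Mut cells and 8.44 and 8.75 against 10.5 and 7.81 in WT cells, and the groups overlapped in both. Its mean change was -0.39 ± 0.08 (adjusted p = 0.00235, limma).

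NDUFAF7, an arginine methyltransferase of the mitochondrial matrix, gave 126 and 125 in DLD1 Mut cells with glutamine and 77.1 and 77.5 without it, and 132 and 98.6 against 80.9 and 74.6 in DLD1 WT cells. HCT116 intensities were 62.4 and 50.3 against 40.8 and 45.8 in Mut cells and 73.4 and 61.6 against 58.5 and 58.0 in WT cells. The groups were apart in each derivative, and the mean change was -0.46 ± 0.08 (adjusted p = 0.000444, limma). The fall passed the threshold in both DLD1 derivatives and in neither HCT116 derivative. The change in DLD1 minus that in HCT116 was -0.34 ± 0.15 and was not called (adjusted p = 0.153, limma).

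NDUFAF1, a member of the complex that builds the membrane arm, gave 51.8 and 59.2 against 39.3 and 46.3 in DLD1 Mut and 40.2 and 37.0 against 35.5 and 36.1 in DLD1 WT cells, with and without glutamine. In HCT116 Mut cells it gave 34.1 and 28.9 against 30 and 35.6, which overlapped, and in HCT116 WT cells 49.2 and 46.1 against 35.7 and 38.6. Its mean change was -0.20 ± 0.07 (adjusted p = 0.0283). NDUFAF2, a relative of NDUFA12 that holds its place during assembly, changed by -0.15 ± 0.05 (adjusted p = 0.0403). These calls were lost in 8 and 12 of the 16 fits without 1 array, with adjusted p-values of up to 0.0680 and 0.0896. NDUFAF6, an early-acting factor, changed by -0.12 ± 0.06 (adjusted p = 0.103).

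Taken by derivative, 16 of 39 genes fell and 1 rose in DLD1 Mut cells, where 16.8% of all genes tested were lower and 16.8% higher (33.6% in either direction). In DLD1 WT cells 14 fell and 3 rose, against 13.0% lower and 14.0% higher among all genes. In HCT116 Mut cells 16 fell and 1 rose, against 16.5% and 16.4% (32.9% in either direction). In HCT116 WT cells 10 fell and 1 rose, against 10.1% and 10.3%. The genes that rose besides NDUFS4 were NDUFA6 by 0.42 and NDUFB5 by 0.57, in DLD1 WT cells, with adjusted p-values of 0.0145 and 0.0241 that each missed the threshold without some arrays of that derivative (up to 0.0843 and 0.151).

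Counts by derivative changed when 1 array was left out. The share of all genes called in those fits is not given here, so these counts have no background. Of 17 genes called in DLD1 Mut cells, 10 were called without either glutamine-fed replicate. In DLD1 WT cells, 17 became 10 and 11 without glutamine-fed replicates 1 and 2, and 8 and 10 without glutamine-free replicates 1 and 2. In HCT116 WT cells, 11 became 7 without glutamine-free replicate 2. The count in HCT116 Mut cells was 12 to 17 over the 16 fits.

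NDUFA9, NDUFAB1, NDUFB10, NDUFS5, NDUFS6, NDUFAF3 and NDUFAF8 fell in all 4 derivatives. These 7 are 5 of 31 subunits (16.1%) and 2 of 8 assembly factors (25.0%), where 3.67% of all genes tested were lower in all 4. Each of the 7 had a derivative whose call was lost in some fit without 1 array, most often NDUFS6 in DLD1 Mut cells, at -0.32 (adjusted p = 0.0489), which was lost in 13 of the 16 fits (adjusted p up to 0.290). With the mean of its probe sets NDUFA9 passed in HCT116 Mut cells alone, with adjusted p-values of 1.00, 0.356 and 0.0701 in DLD1 Mut, DLD1 WT and HCT116 WT cells. NDUFS4 rose in all 4, as did 3.54% of all genes. At the other end, 13 subunits and 2 assembly factors, NDUFAF2 and NDUFAF6, were called lower in no derivative (41.9% of subunits and 25.0% of assembly factors), where 71.6% of all genes tested were lower in none. Of these, NDUFB3, NDUFS7, NDUFV2 and NDUFAF2 fell in the mean of the 4. Among genes with falls in 2 or 3 derivatives, NDUFA1 gave 82.9 and 79.7 in DLD1 Mut cells with glutamine and 48.5 and 48.5 without it, a change of -0.74 ± 0.13 (adjusted p = 0.00106, limma). Its other arrays gave 87.8 and 77.6 against 54.0 and 62.7 in DLD1 WT, 70.6 and 78.5 against 69.5 and 63.8 in HCT116 Mut and 61.4 and 72.5 against 66.0 and 77.9 in HCT116 WT cells. NDUFB1 gave 119 and 109 in DLD1 WT cells with glutamine and 69.1 and 76.2 without it, a change of -0.65 ± 0.11 (adjusted p = 0.00157, limma). Elsewhere it gave 102 and 104 against 84.1 and 75.9 in DLD1 Mut, 76.0 and 74.7 against 66.9 and 54.2 in HCT116 Mut and 81.2 and 82.7 against 69.2 and 70.3 in HCT116 WT cells. The groups of NDUFB1 were apart in each derivative, and those of NDUFA1 in both DLD1 derivatives and HCT116 Mut cells.

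Subunits and assembly factors were next set against each other over the 8 groups. Each gene was expressed relative to its own mean over the 16 arrays, and the median of a class was taken per array. The subunit median was 0.13 and 0.19 in DLD1 Mut cells with glutamine and -0.01 and -0.08 without it, while the assembly factor median was 0.30 and 0.34 against -0.05 and -0.08. In DLD1 WT cells, subunits were at 0.13 and -0.02 against -0.12 and -0.14, and assembly factors at 0.06 and 0.07 against -0.18 and -0.26. By group means the assembly factors thus dropped further than the subunits in both DLD1 derivatives. Subunits minus assembly factors were apart in Mut cells, at -0.17 and -0.14 with glutamine and 0.04 and 0.0012 without it. In WT cells these differences overlapped, at 0.07 and -0.09 with glutamine and 0.06 and 0.12 without it.

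In HCT116 Mut cells, subunits were at 0.14 and 0.14 with glutamine and -0.18 and -0.26 without it, and assembly factors at 0.19 and 0.22 against -0.04 and 0.03. In HCT116 WT cells, subunits were at 0.05 and 0.10 against -0.20 and -0.20, and assembly factors at 0.14 and 0.07 against -0.13 and -0.14. Within each derivative, no array without glutamine reached either array with it, for either class. The subunit median without glutamine was lower in HCT116 than in DLD1.

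**Figure D3:**
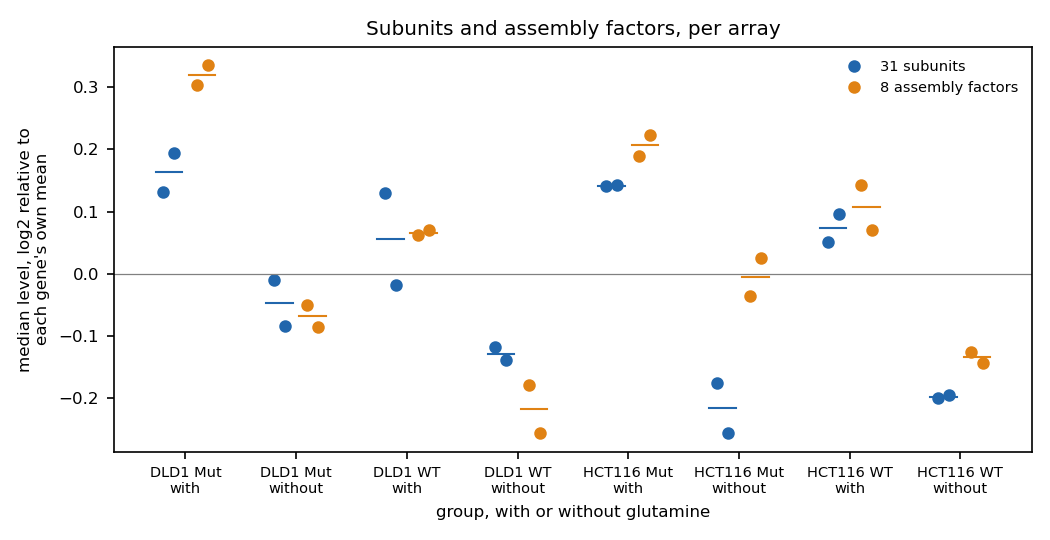
Points are the median log2 level of the 31 subunits and the 8 assembly factors on each array (vertical, relative to each gene's own mean), by group (horizontal), and lines are means of 2 arrays. Assembly factors stand highest in DLD1 Mut cells with glutamine, at 0.30 and 0.34, and subunits are lowest in HCT116 without glutamine, between -0.26 and -0.18.

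A different statistic takes each gene's change first and the median of a class over its genes second. By it, the median change of the subunits minus that of the assembly factors was 0.25 in DLD1 Mut, 0.23 in DLD1 WT, -0.12 in HCT116 Mut and -0.05 in HCT116 WT cells, and 0.10 for the mean of the 4. From the array medians given before, subunits minus assembly factors went instead from -0.16 with glutamine to 0.02 without it in DLD1 Mut, from -0.01 to 0.09 in DLD1 WT, from -0.07 to -0.21 in HCT116 Mut and from -0.03 to -0.06 in HCT116 WT cells. The directions were those of the first statistic in each derivative, and the sizes were not the same. The pooled within-group SD, 0.06, belongs to this difference of levels on single arrays, and no SD is given for the difference of changes. Leaving out 1 array moved the difference of changes between 0.14 and 0.29 in DLD1 Mut and between 0.12 and 0.31 in DLD1 WT cells. In HCT116 the sign was not stable, at -0.28 to 0.03 in Mut cells and -0.11 to 0.04 in WT cells. It turned positive in HCT116 Mut cells without glutamine-free replicate 2, and in HCT116 WT cells without glutamine-fed replicate 2 or glutamine-free replicate 2 (0.04 and 0.03). For the mean of the 4 it was 0.01 and 0.03 without glutamine-free replicate 1 of DLD1 Mut and of DLD1 WT cells, and 0.05 without glutamine-fed replicate 1 of HCT116 WT cells. These medians are descriptions without a test, since genes are not replicates.

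Whether the response to glutamine withdrawal differed between the lines was tested gene by gene, as the mean change in DLD1 minus that in HCT116. Of the 39 genes, 9 differed, 4 with a higher value in DLD1, where 10.0% of all genes tested were higher, and 5 with a lower one, where 8.93% were lower. NDUFA7, an accessory subunit of the matrix arm, gave 166 and 173 in DLD1 Mut cells with glutamine and 148 and 141 without it, and 131 and 122 against 128 and 116 in DLD1 WT cells. In HCT116 it gave 170 and 196 against 104 and 99.1 in Mut cells and 174 and 178 against 117 and 111 in WT cells. The fall was thus wide in HCT116, and the difference between lines was 0.60 ± 0.10 (adjusted p = 0.00199, limma).

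NDUFA9 fell in both lines, with a difference of 0.57 ± 0.09 (adjusted p = 0.00153), although the mean of its probe sets gave 0.37 (adjusted p = 0.150). NDUFA6 differed by 0.45 ± 0.11 (adjusted p = 0.0168) and NDUFB4 by 0.39 ± 0.12 (adjusted p = 0.0484). NDUFS4 rose in both lines and by more in HCT116, with a difference of -0.50 ± 0.10 (adjusted p = 0.00662).

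The remaining 4 had a drop in DLD1 and values near 0 in HCT116. NDUFA1 changed by -0.62 in DLD1 and -0.03 in HCT116, a difference of -0.60 ± 0.13 (adjusted p = 0.00872). NDUFB11 gave 311 and 261 in DLD1 Mut cells with glutamine against 207 and 169 without it, and 245 and 217 against 232 and 179 in HCT116 Mut cells, where the groups overlapped. In WT cells it gave 301 and 280 against 215 and 192 in DLD1 and 185 and 198 against 224 and 201 in HCT116, and the difference between lines was -0.55 ± 0.15 (adjusted p = 0.0318). NDUFAF5 differed by -0.65 ± 0.17 (adjusted p = 0.0216), and NDUFB9 by -0.39 ± 0.11 (adjusted p = 0.0351). The calls of NDUFA1, NDUFA6, NDUFA7, NDUFA9 and NDUFS4 held in all 16 fits without 1 array, and 5 genes in all were called without glutamine-fed replicate 1 of DLD1 Mut cells.

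**Figure D4:**
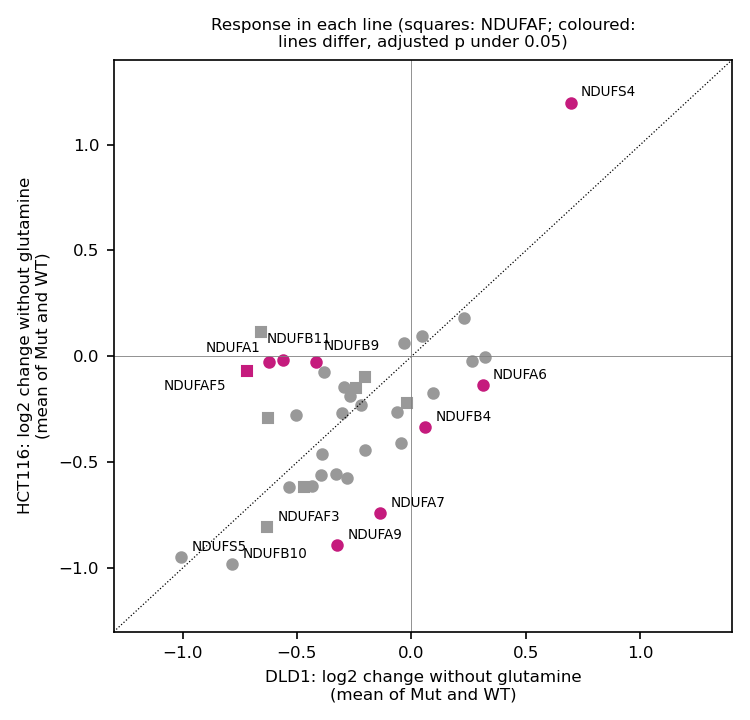
Each point is 1 of the 39 genes, with its log2 change without glutamine in DLD1 (horizontal, mean of Mut and WT) and in HCT116 (vertical), squares mark the assembly factors, and the dotted line marks equal changes. The 9 coloured genes differ between lines at an adjusted p under 0.05, with NDUFA1, NDUFB9, NDUFB11 and NDUFAF5 near 0 in HCT116 and NDUFS4 above the line.

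The PIK3CA derivatives of a line were compared with glutamine present. In DLD1, 2 of 39 genes were higher in Mut than in WT cells, where 2.60% of all genes were higher, and 0 were lower, where 3.20% were lower (5.81% in either direction). NDUFA7 was higher by 0.42 ± 0.10 (adjusted p = 0.0286) and NDUFAF1, at 51.8 and 59.2 against 40.2 and 37.0, by 0.52 ± 0.13 (adjusted p = 0.0415). In HCT116, 1 gene was lower in Mut cells, where 2.12% of all genes were lower, and 0 were higher, where 1.12% were (3.23% in either direction). This was NDUFAF1 again, at 34.1 and 28.9 against 49.2 and 46.1, a difference of -0.60 ± 0.13 (adjusted p = 0.0333, limma). NDUFAF1 arrays did not overlap in either line and the direction was opposite. NDUFA7 was lost without any one of the 4 DLD1 arrays compared (adjusted p up to 0.161). NDUFAF1 was lost in 10 of the 16 fits without 1 array in DLD1 (up to 0.231) and in 5 of 16 in HCT116 (up to 0.192).

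Without glutamine, DLD1 Mut and WT cells differed in 0 of 39 genes by limma, where 10.3% of all genes differed (4.36% higher and 5.91% lower). At an unadjusted p under 0.05 there were 8 of 39, where 24.3% of all genes tested were under it. The lowest adjusted p was 0.0728, of NDUFAB1. The same comparison by limma with a trended and robust variance called 3, and the share of all genes under that setting is not given here. In HCT116, 2 genes were higher in Mut cells, where 12.3% of all genes were higher, and 3 were lower, where 12.4% were lower. NDUFB10 was lower by -1.09 ± 0.12 (adjusted p = 0.000115), NDUFS5 by -0.65 ± 0.14 (adjusted p = 0.00632) and NDUFA8 by -0.64 ± 0.13 (adjusted p = 0.00426). NDUFA8, an intermembrane-space-facing subunit like the other 2, gave 55.0 and 52.0 in Mut against 83.6 and 83.0 in WT cells, and 77.7 and 67.1 against 70.5 and 80.7 with glutamine. NDUFS4 was higher by 0.81 ± 0.10 (adjusted p = 0.000279), and NDUFA12 by 0.24 ± 0.08 (adjusted p = 0.0417), a call lost in each of the 16 fits without 1 array. With glutamine NDUFS4 was higher in HCT116 Mut cells by 0.38 ± 0.10 with arrays apart, which did not pass (adjusted p = 0.0814, limma). Its glutamine response was not called different between HCT116 Mut and WT cells (0.44 ± 0.14, adjusted p = 0.0855, limma).

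The difference of the glutamine response between derivatives was then tested. In HCT116, 2 of 39 genes fell further in Mut than in WT cells, where 4.75% of all genes were lower, and 0 were higher, where 4.75% were (9.49% in either direction). NDUFB10 differed by -1.09 ± 0.16 (adjusted p = 0.00336), and held in each of the 16 fits. NDUFS5 differed by -0.80 ± 0.20 (adjusted p = 0.0286), a call lost in 7 of the 16 fits (up to 0.0915) and with HCT116 fitted alone (adjusted p = 0.0542). In DLD1, 0 of 39 genes differed by limma, where 0.823% of all genes did. There were 4 of 39 at an unadjusted p under 0.05, where 14.9% of all genes tested were under it. The lowest adjusted p was 0.112, of NDUFS3, and the trended and robust variance called 0.

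With glutamine present, DLD1 was compared with HCT116 as the mean of both derivatives of each. Of the 39 genes, 10 were higher in DLD1, where 24.5% of all genes were higher, and 9 were lower, where 22.5% were lower (47.0% in either direction). NDUFAF8 was lower in DLD1 by -1.09 ± 0.08 (adjusted p = 1.28e-06), with 170 to 231 on the DLD1 arrays and 391 to 498 on the HCT116 arrays. NDUFB9, a LYR-motif subunit at the tip of the membrane arm, was lower by -1.05 ± 0.08 (adjusted p = 1.14e-06), at 44.5 and 39.4 in DLD1 Mut, 35.9 and 35.0 in DLD1 WT, 82.0 and 77.1 in HCT116 Mut and 73.4 and 87.7 in HCT116 WT cells. Without glutamine NDUFB9 gave 27.1 and 29.2, 29.9 and 29.1, 86.1 and 75.7, and 78.1 and 73.8 in the same order. With glutamine the lines did not overlap for either gene.

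NDUFS5, NDUFS4 and NDUFB10 were also lower in DLD1, by -0.91, -0.84 and -0.79, with adjusted p-values of 3.07e-06 to 1.75e-05. NDUFV3, NDUFC1, NDUFAF6 and NDUFA7 were lower by -0.59, -0.32, -0.31 and -0.29. NDUFAF7 stood out in the other direction, at 98.6 to 132 in DLD1 and 50.3 to 73.4 in HCT116, a difference of 0.96 ± 0.11 (adjusted p = 2.31e-05, limma). NDUFA12, NDUFB1, NDUFB11, NDUFB3, NDUFA9, NDUFAF5, NDUFA8, NDUFA3 and NDUFAF1 were higher by 0.26 to 0.51. Of the 19 calls, 15 held in all 16 fits without 1 array, and NDUFA3, NDUFB3, NDUFAF1 and NDUFAF5 did not. NDUFA9 was lost with the mean of its probe sets (0.07, adjusted p = 0.643).

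Complex I also contains subunits encoded by mitochondrial DNA, of which ND1, ND2, ND3, ND5 and ND6 had a probe set of their own. In the mean of the 4 derivatives 1 of 5 fell after glutamine withdrawal and 0 rose, with a median of 0.0035, where 23.5% of all genes were lower and 24.3% higher. ND2, part of the proton-pumping membrane arm, lay between 7413 and 8573 on the 16 arrays and changed by 0.00 ± 0.04 (adjusted p = 0.936). ND6, the one encoded on the light strand, changed by -0.30 ± 0.08 (adjusted p = 0.00874). ND5 went down in DLD1 and up in HCT116, and its change in DLD1 minus that in HCT116 was -0.45 ± 0.08 (adjusted p = 0.00436, limma). It changed by -0.17 in DLD1 Mut, -0.27 in DLD1 WT, 0.31 in HCT116 Mut and 0.15 in HCT116 WT cells. The changes in DLD1 WT and HCT116 Mut cells passed, and these calls were lost in 6 and 4 of the 16 fits without 1 array.

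NDUFA4 and NDUFA4L2 carry the current symbols COXFA4 and COXFA4L2, since the first is a subunit of complex IV, and are not among the 39. COXFA4 gave 26.4 and 23.5 in DLD1 Mut cells with glutamine and 16.6 and 20.3 without it, and 29.8 and 23.7 against 19.9 and 18.4 in DLD1 WT cells. For HCT116 the values were 20.4 and 21.8 against 25.9 and 15.3 in Mut cells, where the groups overlapped, and 25.6 and 26.4 against 20.4 and 13.5 in WT cells. Its mean change was -0.41 ± 0.12 (adjusted p = 0.0178, limma), and it passed in no single derivative. COXFA4L2 lay between 6.05 and 10.7 and changed by 0.12 ± 0.11 (adjusted p = 0.428).

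Assembly factors without an NDUF name followed. Of 14 tested, 8 fell and 1 rose in the mean of the 4 derivatives, with a median of -0.27, where 23.5% of all genes were lower and 24.3% higher. ACAD9, an acyl-CoA dehydrogenase relative that works with NDUFAF1, changed by -1.03 ± 0.07 (adjusted p = 6.04e-07) and fell in all 4 derivatives, by -1.21 to -0.90. AIFM1, needed for import of respiratory chain proteins, changed by -0.68 ± 0.05 (adjusted p = 6.74e-07) and fell in all 4, and SFXN4 changed by -0.33 ± 0.05 (adjusted p = 0.000134). TIMMDC1, a membrane-arm factor, rose by 0.19 ± 0.06 (adjusted p = 0.0244), a call lost in 5 of the 16 fits without 1 array.

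The rest of the chain gave the setting for these values, to be read against 23.5% lower and 24.3% higher among all genes tested. In complex III 8 of 13 genes fell and 1 rose, with a median of -0.31, and the assembly factor UQCC2 changed by -0.77 ± 0.06. In complex IV 15 of 25 fell and 2 rose, with a median of -0.20, in complex V 9 of 17 fell and 0 rose, with a median of -0.20, and ATP5F1D of complex V changed by -1.0 ± 0.08. In complex II 1 of 6 fell and 1 rose, with a median of 0.04. These 6 are SDHC, SDHD and the assembly factors SDHAF1 to SDHAF4, and SDHA and SDHB were not among the genes tested. The lists for complexes III, IV and V also hold assembly factors. For ubiquinone, the electron acceptor of complex I, 4 of 11 synthesis genes fell and 3 rose, with a median of 0.04, and PDSS1, which makes its tail, changed by -1.07 ± 0.07 (adjusted p = 3.59e-07). Of the other enzymes that reduce ubiquinone, 2 of 5 fell and 1 rose, and DHODH of pyrimidine synthesis changed by -0.54 ± 0.06 (adjusted p = 4.57e-05). Of 12 regulators of mitochondrial biogenesis 3 fell and 2 rose, among them the coactivator PPARGC1B at -0.60 ± 0.08 (adjusted p = 8.41e-05).

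**Figure D5:**
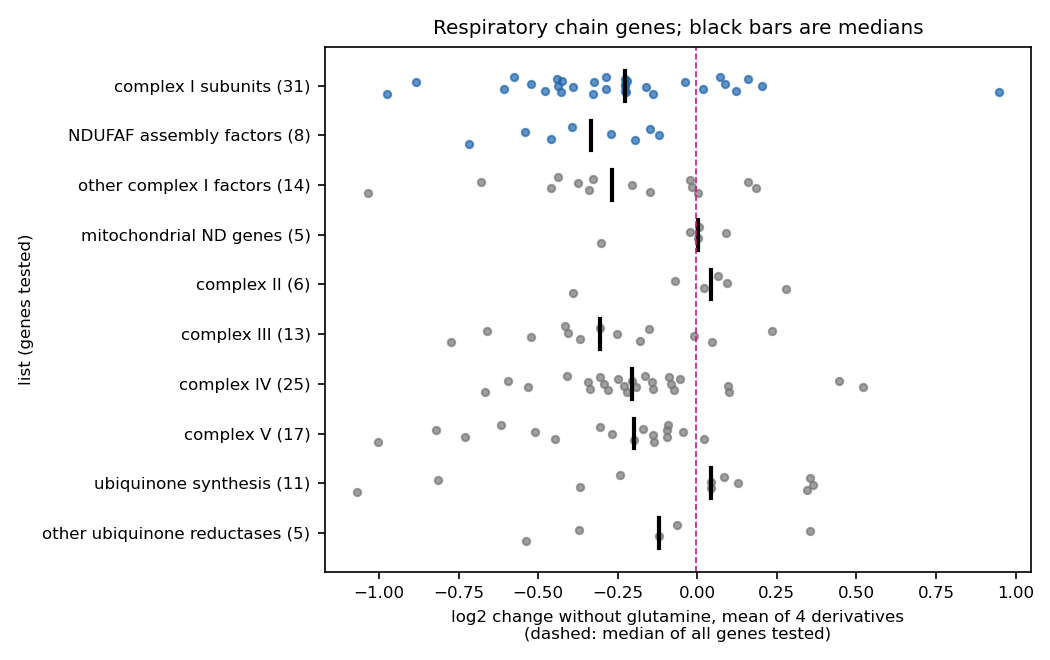
Points are genes, placed by log2 change without glutamine in the mean of the 4 derivatives (horizontal) and by list (vertical, number of genes tested in brackets), black bars are medians and the dashed line is the median of all genes tested. Medians lie between -0.33 and -0.20 for complex I, III, IV and V genes and complex I assembly factors, and at 0.04 for complex II and ubiquinone synthesis. The complex II list holds SDHC, SDHD and the assembly factors SDHAF1 to SDHAF4, without SDHA and SDHB.

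Close copies limit these values. RefSeq lists 66 pseudogenes named after 20 of the 39 genes, most after NDUFA5 and NDUFB4, with 12 each, and NDUFS5, with 7, and whether the probes of these genes also detect such copies was not tested.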

How the data were processed

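Total RNA from 16 samples was labelled for Affymetrix whole-transcript arrays, per the labels' protocols. The authors deposited 1 table of linear intensity values for 53617 probe sets, and their normalization is not given in the sources used here. Deposited intensities were taken to log2 with no pseudocount. Probe sets with 1 symbol (23871) were used, those with several (1842) or none (27904) were not, and symbols were updated through the RefSeq table (GRCh38.p14). The upper 70% of genes by mean log2 entered limma 3.58.1 in R 4.3.3 (8 group means, 8 residual degrees of freedom, Benjamini-Hochberg, threshold 0.05), which was tested on simulated data. The members and lists were chosen with earlier results of these data known. Genes named with every array are, per comparison, up to 4 subunits and 2 assembly factors with the largest change among those called (between 2 groups, only where arrays do not overlap), and NDUFA4 and NDUFA4L2. From other lists up to 3 called genes by adjusted p and 1 in the other direction were eligible. Alternatives were other filters, normalizations, probe-set averaging, replicate blocks, a trended robust variance, a minimum change, each line alone and leaving out each array. The number of arrays limits the precision.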

Additional observations from a re-analysis of the deposited data

Results flagged for a closer look

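Responses to glutamine withdrawal that differed between the lines (mean change in DLD1 minus that in HCT116, log2, limma) were higher in DLD1 for NDUFA7 (0.60 ± 0.10), NDUFA9 (0.57 ± 0.09), NDUFA6 (0.45 ± 0.11) and NDUFB4 (0.39 ± 0.12). They were lower in DLD1 for NDUFAF5 (-0.65 ± 0.17), NDUFA1 (-0.60 ± 0.13), NDUFB11 (-0.55 ± 0.15), NDUFS4 (-0.50 ± 0.10) and NDUFB9 (-0.39 ± 0.11). Their adjusted p-values ran from 0.00153 to 0.0484. They are 9 of the 39 genes, where 19.0% of all genes tested differed between the lines. In HCT116 the response differed between Mut and WT cells for NDUFB10 (-1.09 ± 0.16, adjusted p = 0.00336) and NDUFS5 (-0.80 ± 0.20, adjusted p = 0.0286). Among all genes tested, 9.49% differed in this way. The NDUFS5 call was lost in some fits without 1 array and with HCT116 fitted alone. The sum of the leukocyte markers, mostly CD68, was 181 and 217 in HCT116 Mut and WT cells without glutamine and 30.9 to 45.2 in DLD1, and its part in these differences was not tested.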

How the results depend on the processing

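Of 128 calls of complex I genes over all comparisons, the sign changed in none of the alternatives run. With a log2 change of at least 0.5 also required, the count of called genes was 10 in DLD1 Mut withdrawal, 8 in the mean of the 4 derivatives, 8 between the lines and 1 for DLD1 Mut against WT with glutamine. For that last comparison it was 0 with no filter, 4 after quantile normalization, 1 after a median shift and 0 with each line alone. For HCT116 Mut against WT with glutamine it was 0 with no filter or each line alone, and 3 with genes above the median level or a trended robust variance. For Mut against WT without glutamine it was 1 (above the median) and 3 (trended) in DLD1 and 8 (trended) in HCT116. The HCT116 difference of responses gave 4 above the median and 1 with each line alone. Shares of all genes under these settings are not given here, so these counts cannot be set against a background. The shares printed earlier belong to the main fit. Adding COXFA4 and COXFA4L2, chosen after seeing the data, moved the median difference in HCT116 Mut cells to -0.0067. Leaving out NDUFA4 and NDUFA4L2 gives no separate value, as neither carries an NDUF symbol. For DMAC2, an assembly factor, the response difference between the lines went from 0.41 to -0.0616 with the mean of its probe sets. The latter value did not pass (adjusted p = 0.846, limma). Leaving out 1 array gave ranges of 10 to 17, 8 to 17, 12 to 17 and 7 to 13 called genes for withdrawal in DLD1 Mut, DLD1 WT, HCT116 Mut and HCT116 WT cells, 25 to 28 for their mean and 5 to 10 for the line difference. With glutamine Mut against WT gave 0 to 2 in DLD1 and 0 to 1 in HCT116, without it 0 to 1 and 4 to 6. The response differences gave 0 to 0 and 1 to 2, and DLD1 against HCT116 gave 15 to 20. The median differences ranged over 0.14 to 0.29, 0.12 to 0.31, -0.279 to 0.0336, -0.115 to 0.0363, and 0.0139 to 0.124 for the mean. Where a fit left 1 array in a group, that array was assumed to vary like the others. Shares of all genes called without 1 array are not given here either. The causes of these shifts were not tested.

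Arrays with the same replicate number deviated together at r = -0.0361 to 0.0334 over 28 pairs of groups. The labels do not say whether same-numbered cultures were handled together, and these correlations cannot decide it. With the replicate number as a block over all arrays, DLD1 Mut against WT with glutamine gave 1 called gene, and with a block within each line it gave 0, as did HCT116. Withdrawal in the mean of the 4 derivatives gave 28 under either block. Shares of all genes called under the blocks are not given here.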
